A study of Mus musculus with 15 samples.

Results

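The RNA of 7 endocannabinoid genes was followed in sorted nuclei of the mouse ventral tegmental area, through food training, cocaine self-administration and abstinence. The genes were the receptor gene Cnr1, the synthesis genes Dagla, Daglb and Napepld, and the breakdown genes Mgll, Abhd6 and Faah. They were matched by symbol, and each matched 1 row of a table of 35976 genes. All 7 passed the filter on low counts in every comparison, and each had at least 163 counts in every library apart from Mgll in 1 library, where the count was 0. None of the 7 passed the adjusted threshold in any comparison by edgeR's quasi-likelihood test. Among dopaminergic libraries, the maintenance values of Dagla and Napepld lay below every food-trained and abstinence value, for Dagla only by the gap from 28.4 to 29.1 CPM. Of all genes, 8.45% did not overlap between maintenance and food training and 12.2% between maintenance and abstinence. Between the populations, Mgll was lower in dopaminergic nuclei without overlap, a lack of overlap that 26.1% of all genes shared in either direction. Faah had the lowest unadjusted p of the 7 there (edgeR p 0.033), with overlapping groups.

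The mice were male DAT-Cre heterozygotes of the line B6.SJL-Slc6a3tm1.1(cre)Bkmm/J, 8 to 12 weeks old. Cre in this line is made in cells that use the dopamine transporter gene. All groups received AAV5-DIO-KASH-HA in the ventral tegmental area, a virus that puts an HA tag on the nuclear envelope of Cre-positive cells, and had 14 days for expression. Each library came from tissue of 2 mice, sorted into HA-positive nuclei (called dopaminergic here) and HA-negative nuclei (called non-dopaminergic), so that the latter also hold any dopaminergic nucleus the virus did not reach. The first group, with 4 dopaminergic and 4 non-dopaminergic libraries, was taken after 7 days of lever pressing for food, with no cocaine. The second, with 3 dopaminergic libraries, was taken after 5 daily sessions at 0.3 mg/kg per infusion and 10 daily sessions of maintenance at 1.0 mg/kg per infusion. The last, with 4 dopaminergic libraries, followed the same cocaine schedule and then 21 days in the home cage. Both cocaine groups also had catheter surgery and more time after the virus than the food-trained group, and these cannot be told apart from cocaine. The labels do not say whether replicates within a group were separate sorts or days, so p-values measure the spread between these pools.

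Endocannabinoids are lipids that neurons make on demand and that mostly act backwards, from a neuron onto the axon terminals that contact it. In the ventral tegmental area, 2-arachidonoylglycerol (2-AG) released by dopamine neurons is known to act on CB1 receptors of incoming GABA and glutamate terminals, which changes how those inputs drive the dopamine neuron. Anandamide, the other main endocannabinoid, is made and broken down by separate enzymes. The transcript of a receptor or enzyme in a nucleus reports on the cell that makes the protein, not on the terminal where the protein may act.

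The genes are described by role, with positions in GRCm38. Cnr1, at chr4:33924593-33948831 on the plus strand, encodes the CB1 receptor, which couples to inhibitory G proteins. Dagla, at chr19:10245265-10304877 on the minus strand, encodes diacylglycerol lipase alpha, the main neuronal source of 2-AG in adult brain. Daglb, at chr5:143464584-143505942 on the plus strand, encodes the related lipase beta. Mgll, at chr6:88724412-88828360 on the plus strand, encodes monoacylglycerol lipase, which hydrolyses most brain 2-AG. Abhd6, at chr14:8002902-8056763 on the plus strand, encodes a membrane hydrolase that also degrades 2-AG. Napepld, at chr5:21662901-21701396 on the minus strand, encodes a phospholipase D that forms anandamide and related N-acylethanolamines. Faah, at chr4:115967145-116017926 on the minus strand, encodes fatty acid amide hydrolase, the main enzyme that degrades anandamide. Daglb overlaps Rac1 on the opposite strand by 2309 bases, and Mgll overlaps an antisense gene, Gm26588, by 1449 bases. Dagla overlaps an antisense gene, AC132148.1, by 2496 bases, and Napepld a pseudogene on the opposite strand, Gm15719, by 635 bases. Mgll also overlaps genes of unconfirmed type on both strands, by 2889 to 3773 bases each. Use of strand in counting was not given in the sources used here, so reads from those stretches are uncertain.

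Promoter windows from RefSeq (GRCm38.p6), from 250 bases before to 50 after a start site, matched 6 of the 7 genes, at 10 start sites. Dagla did not match. Those printed are Napepld, for its difference at maintenance, Cnr1 (the first of its 3 start sites), as the receptor, and Faah, for its difference between the populations. Capitals mark matches, on either strand, to the YY1 string AAGATGGC in Napepld and to the GC box string GGGCGG in Cnr1 and Faah.
Napepld, chr5:21701573-21701872, minus strand: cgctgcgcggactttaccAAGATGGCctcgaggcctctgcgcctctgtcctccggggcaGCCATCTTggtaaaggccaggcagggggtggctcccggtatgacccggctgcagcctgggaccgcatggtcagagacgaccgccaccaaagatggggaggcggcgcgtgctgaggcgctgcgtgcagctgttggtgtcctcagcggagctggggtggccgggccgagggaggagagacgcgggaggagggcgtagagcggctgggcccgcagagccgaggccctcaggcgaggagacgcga
Cnr1, chr4:33924014-33924313, plus strand: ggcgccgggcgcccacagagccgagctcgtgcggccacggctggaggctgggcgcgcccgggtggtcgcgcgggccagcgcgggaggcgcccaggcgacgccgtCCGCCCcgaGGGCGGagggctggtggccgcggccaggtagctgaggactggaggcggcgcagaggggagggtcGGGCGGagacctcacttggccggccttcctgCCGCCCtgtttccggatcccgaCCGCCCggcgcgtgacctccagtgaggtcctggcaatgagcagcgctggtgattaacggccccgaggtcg
Faah, chr4:116017875-116018174, minus strand: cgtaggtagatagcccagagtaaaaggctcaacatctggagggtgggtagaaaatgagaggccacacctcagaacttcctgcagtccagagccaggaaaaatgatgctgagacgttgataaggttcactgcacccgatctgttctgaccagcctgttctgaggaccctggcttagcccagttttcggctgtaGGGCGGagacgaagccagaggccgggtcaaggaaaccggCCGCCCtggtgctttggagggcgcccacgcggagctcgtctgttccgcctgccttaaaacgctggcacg
The window of Napepld held 2 YY1 matches and 0 GC boxes, that of the first start site of Cnr1 held 5 GC boxes and that of Faah held 2. The windows of the other 2 start sites of Cnr1 held 0 GC boxes, and the GC content of the last was 46.3%, below the median of all windows. Among 32851 promoter windows of the same length, 2.75% held the YY1 string and 35.7% the GC box. The other strings searched on both strands were the cyclic AMP element TGACGTCA (in 1.79% of windows), the AP-1 site TGANTCA (7.81%), the NRF1 site (0.971%) and the NBRE AAAGGTCA, known as a site of nuclear receptors of the Nurr1 family (1.51%). None of these strings contains another, and these 4 had 0 matches in the 10 windows. The GC content was 70.3% in Napepld, 76.3% in the printed window of Cnr1 and 57.7% in Faah, against a median of 52.7% over all windows. These matches describe letters in a window and were not tested as binding sites.

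Libraries held 25813697 to 59046618 counts, and none carries molecular identifiers, so limits taken from counts cover counting error only. The sort was checked on marker lists, summed as CPM, which are counts scaled by library size and TMM factors. The sum over 10 dopamine neuron markers, which include Slc6a3 and Th, was 5705 to 12426 CPM in the 11 dopaminergic libraries and 358 to 532 CPM in the non-dopaminergic ones. Glial RNA moved with the populations: over 8 oligodendrocyte markers the sum was 1662 to 2700 CPM in food-trained dopaminergic and 8819 to 22171 CPM in non-dopaminergic libraries, over 7 astrocyte markers it was 793 to 1050 and 1886 to 3572, and over 7 microglia markers it was 517 to 934 and 1599 to 3108. No listed marker of these types was at 0 in all libraries of a group.

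Each gene's level was first set against the others within a group, as CPM per kilobase of the longest protein-coding transcript. Abhd6 had the highest level per kilobase of the 7 in every group, and Mgll and Napepld had the lowest 2 levels in all 4 groups. In food-trained dopaminergic nuclei the levels were 66.4 ± 26.4 for Abhd6, 32.3 ± 12.5 for Daglb, 30.6 ± 6.55 for Faah, 16.1 ± 6.66 for Cnr1, 10.8 ± 4.40 for Dagla, 3.87 ± 1.21 for Napepld and 2.23 ± 1.51 for Mgll CPM per kilobase (SD, n = 4). Abhd6 stood at the 95.2th percentile of 17645 detected genes, and Mgll at the 33.5th. Most neighbours in that order overlapped in range between libraries. Faah and Cnr1 did not overlap by this length, though with the union of all exons as length their means were 15.0 and 14.6 CPM per kilobase, and Abhd6 was above Daglb and Dagla above Napepld within each of the 4 libraries although their ranges overlapped. By transcript length, the synthesis enzyme of 2-AG with the higher level was the beta form, in food-trained dopaminergic nuclei and in the other 3 groups. With the union of all exons this did not hold in non-dopaminergic nuclei.

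At maintenance the level of Abhd6 was 115 ± 54.3 and that of Napepld 1.45 ± 0.444 CPM per kilobase (SD, n = 3). There Dagla, at 3.69 ± 1.97, was next to Mgll, at 3.46 ± 0.881, with overlapping ranges, and below Cnr1, at 25.7 ± 15.6, without overlap. At abstinence the level of Abhd6, at 87.0 ± 23.5, did not overlap that of Faah, at 38.1 ± 11.5 CPM per kilobase (SD, n = 4). In non-dopaminergic nuclei Faah was next below Abhd6, at 43.8 ± 6.81, above Daglb, at 25.0 ± 3.61 CPM per kilobase (SD, n = 4), without overlap. The order depended on the length used for genes with long alternative exons. With the union of all exons as length, Cnr1 was next below Abhd6 at maintenance and at abstinence and Daglb was behind Dagla in non-dopaminergic nuclei, while Abhd6 kept the first place in all 4 groups.

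**Figure D1:**
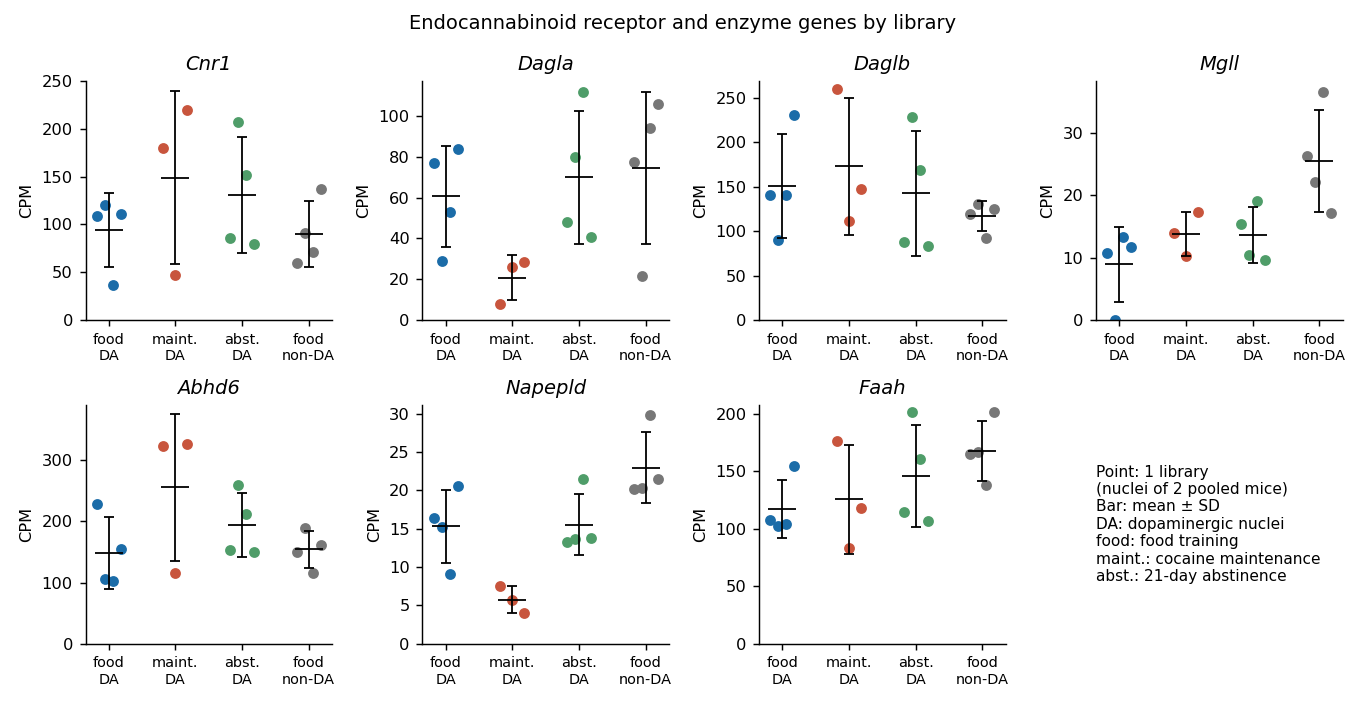
Level of each gene (y axis, CPM) in the 15 libraries by group (x axis); a point is 1 library, the bar the mean and the whiskers the SD. The 3 maintenance points of Dagla and Napepld lie below every food-trained and abstinence dopaminergic point, and the 4 non-dopaminergic points of Mgll lie above every food-trained dopaminergic point.

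The first comparison asked whether dopaminergic nuclei differ from their neighbours in these genes, in food-trained mice. By edgeR, 0 of 7 genes passed at an adjusted p under 0.05, against 12.8% of the 19786 genes tested, and 0 passed with DESeq2 or limma-voom. The edgeR fit had no block for the replicate number, so its intervals and p-values ignore any pairing of the populations. With such a block 0 of 7 passed, against 3.92% of all genes. At an unadjusted p under 0.05, 1 of 7 passed (Faah), against 24.3% of all genes. The groups did not overlap for 1 of 7 (Mgll), against 26.1% of all genes. Over the 7 genes the median difference was -0.29 on the log2 scale, beside -0.21 for all genes tested.

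Cnr1, the receptor gene, overlapped between the populations. In dopaminergic libraries its level was 108, 120, 36.3 and 111 CPM, and in non-dopaminergic libraries 59.9, 90.9, 71.6 and 138 CPM. The ranges overlapped, and dopaminergic replicate 3 was the lowest of all. Dopaminergic minus non-dopaminergic, the log2 difference was 0.07 (SE 0.40, 95% interval -0.82 to 0.96, edgeR adjusted p 0.945), an interval that covers a level from 0.565 to 1.95 times the non-dopaminergic one.

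The enzymes that make 2-AG differed in neither direction beyond the spread. Dagla was at 76.9, 29.1, 53.0 and 83.6 CPM in dopaminergic and at 77.3, 21.4, 93.9 and 106 CPM in non-dopaminergic libraries. Replicate 2 was the lowest in both populations. On the log2 scale the difference was -0.29 (SE 0.49, 95% interval -1.39 to 0.82, edgeR adjusted p 0.795). Daglb, the beta form, was at 141, 90.4, 140 and 230.1 CPM in dopaminergic and at 119, 130.1, 92.2 and 125 CPM in non-dopaminergic libraries. The dopaminergic range enclosed the other one, and dopaminergic replicate 4 stood highest. This was a log2 fold change of 0.38 (SE 0.28, 95% interval -0.25 to 1.00, edgeR adjusted p 0.476).

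Mgll, the main 2-AG hydrolase, was lower in every dopaminergic library. It was at 10.7, 0, 13.3 and 11.7 CPM in dopaminergic and at 26.3, 22.1, 36.5 and 17.2 CPM in non-dopaminergic libraries. All 4 dopaminergic values lay below all 4 non-dopaminergic ones, as was the case for 19.7% of all genes. The log2 fold change was -1.51 (SE 1.17, edgeR adjusted p 0.511), and without dopaminergic replicate 2 it was -1.10 (SE 0.35, edgeR adjusted p 0.0809). Other fits that kept this library gave larger values, -2.72 with limma-voom (adjusted p 0.222) and -2.09 with the replicate block (edgeR adjusted p 0.424). In replicate 2 the count of Mgll was 0 of 35536803, which allows a level of up to 0.0854 CPM by counting error. The same library held 0 counts for 26 of 7573 genes that had at least 300 counts in each of the other 10 dopaminergic libraries. Dopaminergic replicate 3 held 52 such genes and 6 of the 11 dopaminergic libraries held none. Glial markers were lower in the same nuclei, as given above, and monoacylglycerol lipase is known in astrocytes as well as neurons. The part of those markers in this difference was not tested, and in sorted pools fewer cells of a type and less RNA per cell cannot be told apart.

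Abhd6, the other 2-AG hydrolase, did not separate the populations. Its level was 228, 106, 103 and 155 CPM in dopaminergic and 150.4, 189, 115 and 162 CPM in non-dopaminergic libraries. The dopaminergic range enclosed the other one. Dopaminergic minus non-dopaminergic, the log2 difference was -0.05 (SE 0.29, 95% interval -0.70 to 0.60, edgeR adjusted p 0.944).

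The anandamide genes both had lower means in dopaminergic nuclei. Napepld was at 16.4, 15.2, 9.04 and 20.6 CPM in dopaminergic and at 20.1, 20.3, 29.9 and 21.5 CPM in non-dopaminergic libraries. Dopaminergic replicate 4 was the only one inside the non-dopaminergic range. On the log2 scale the difference was -0.57 (SE 0.36, 95% interval -1.39 to 0.24, edgeR adjusted p 0.394). Faah was at 108, 102, 104 and 155 CPM in dopaminergic and at 165, 166, 138 and 201.5 CPM in non-dopaminergic libraries. Dopaminergic replicate 4 stood above non-dopaminergic replicate 3, and the other 3 dopaminergic libraries lay below all 4. This was a log2 fold change of -0.51 (SE 0.20, 95% interval -0.96 to -0.05), with an edgeR p of 0.033 and an adjusted p of 0.157. Between libraries of the same replicate number, which were taken as pairs, both Napepld and Faah were lower in the dopaminergic one in 4 of 4 pairs, as were 28.5% of all genes. Without dopaminergic replicate 4 the log2 fold change of Faah was -0.67 with an edgeR adjusted p of 0.0441, the only fit in which Faah passed. The summed oligodendrocyte, astrocyte and microglia markers were also higher in the non-dopaminergic libraries, by edgeR in 5 of 8, 3 of 7 and 5 of 7 genes. Of 4 GABA neuron markers, Gad1 and Gad2 were higher there without overlap, Slc32a1 had a lower mean there, and 0 passed by edgeR. The part of these markers in the difference of Faah was not tested.

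**Figure D2:**
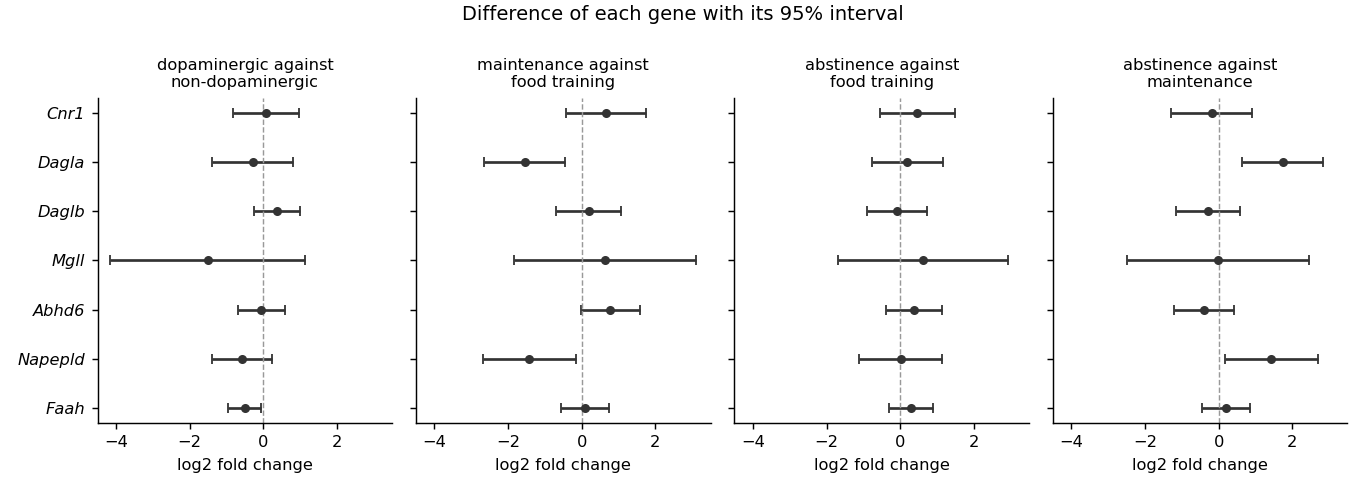
Log2 fold change (x axis) of each gene (rows) with its 95% interval (bars) in the 4 comparisons (panels), from edgeR's quasi-likelihood fit. The bars of Dagla and Napepld lie off 0 in both panels with maintenance and that of Faah lies off 0 between the populations, before adjustment over all genes.

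The comparison of maintenance with food training asked which levels differ in dopaminergic nuclei once cocaine is taken daily. By edgeR, 0 of 7 genes passed, against 0.131% of the 19060 genes tested, and 0 passed with DESeq2 or limma-voom. At an unadjusted p under 0.05, 2 of 7 passed (Dagla and Napepld), against 11.6% of all genes. The same 2 genes did not overlap between the groups and were lower at maintenance, against 8.45% of all genes without overlap and 4.14% in that direction. The median difference was 0.19 on the log2 scale over the 7 genes, beside -0.01 for all genes.

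Among dopaminergic libraries, Dagla was below its food-trained and abstinence levels in all 3 maintenance libraries but did not pass the adjusted threshold. Its level at maintenance was 8.08, 25.9 and 28.4 CPM, against the food-trained dopaminergic values above, whose lowest was 29.1 CPM. The groups were separated by the gap from 28.4 to 29.1 CPM, so that the highest maintenance and the lowest food-trained library were almost equal. Against food training the log2 fold change was -1.54 (SE 0.51, edgeR p 0.00941, adjusted p 0.319), a level 0.343 times that after food training (95% interval 0.160 to 0.734). Without maintenance replicate 1, the lowest library, it was -1.16 (edgeR adjusted p 0.540). DESeq2 gave an adjusted p of 0.0555.

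The libraries with low Dagla were also those with a low GC slope. For each library, the slope of log2 CPM on the GC content of transcripts was fitted over 8345 genes. The 5 libraries with the lowest slopes were the 3 maintenance libraries (-0.0384 to -0.0223 per percent GC), non-dopaminergic replicate 2 (-0.0248) and food-trained dopaminergic replicate 2 (-0.0174). These were also the 5 libraries with the least Dagla, at 8.08 to 29.1 CPM, against 40.4 to 111 CPM in the other 10. The same match of 5 libraries held for 107 of 19060 genes, or 0.561%. Dagla had the highest transcript GC content of the 7 genes, 58.8%, where the lowest was 44.9% in Cnr1. With each library's slope removed, the log2 fold change of Dagla at maintenance was -1.16 (edgeR adjusted p 0.422). With all 15 libraries and a term shared by the 3 maintenance libraries and non-dopaminergic replicate 2, it turned to 0.55 (SE 0.84, edgeR adjusted p 0.9999). That term rests on 1 non-dopaminergic library, the lowest of its group in Dagla at 21.4 CPM, so the turn follows from that library's value. Food-trained dopaminergic replicate 2, also among the 5 lowest slopes, was not part of the term. All 3 maintenance libraries have low slopes, so that slope and stage cannot be told apart for Dagla here.

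**Figure D3:**
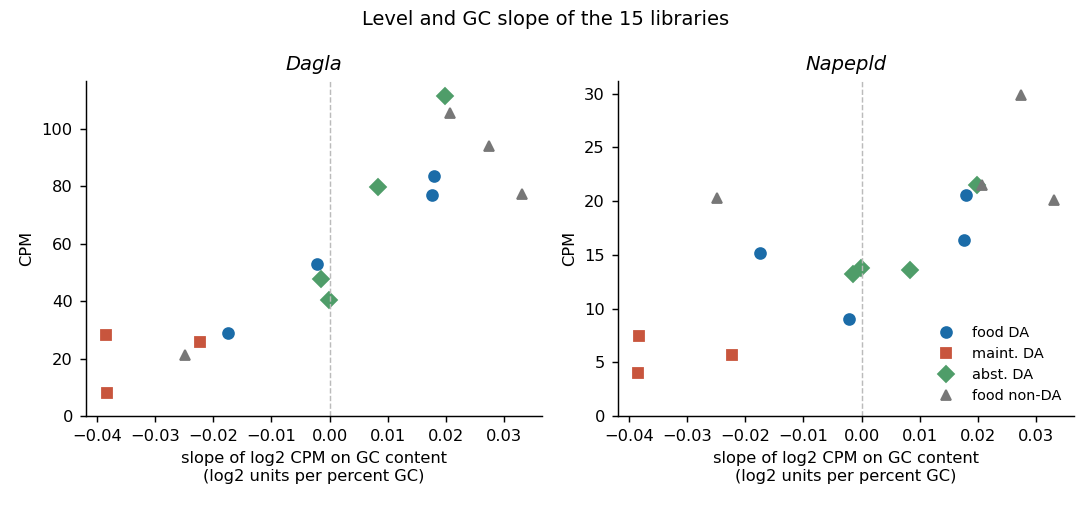
Level of Dagla and Napepld (y axes, CPM) against each library's GC slope (x axes, log2 units of CPM per percent of transcript GC) in the 15 libraries; each symbol is 1 library, with shape and color by group. For Dagla the 5 libraries with the lowest slopes are the 5 lowest points, at or below 29.1 CPM; for Napepld non-dopaminergic replicate 2 and food-trained dopaminergic replicate 2 lie well above the maintenance libraries.

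Napepld was also lower in all 3 maintenance libraries. Its level was 7.50, 5.72 and 3.99 CPM, from 360, 195 and 163 counts, against 9.04 to 20.6 CPM after food training. All 3 maintenance libraries were below every other library of the series. Against food training this was a log2 fold change of -1.42 (SE 0.59, edgeR p 0.0309, adjusted p 0.399), a level 0.374 times that after food training (95% interval 0.155 to 0.900). Among the 5 libraries of lowest slope, non-dopaminergic replicate 2 held 20.3 CPM, in a group that spans 20.1 to 29.9 CPM, and food-trained replicate 2 held 15.2 CPM. With the slopes removed the log2 fold change was -1.56 (edgeR adjusted p 0.419), and with the shared term it was -1.21 (edgeR adjusted p 0.9999). The part of the slope in this difference was not tested further. DESeq2 gave an adjusted p of 0.0568.

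The other 5 genes overlapped between maintenance and food training. Abhd6 was at 324, 116 and 327 CPM at maintenance, with 2 libraries above every food-trained one and 1 inside their range. Its log2 fold change was 0.78 (SE 0.38, 95% interval -0.03 to 1.59, edgeR adjusted p 0.445). Cnr1 was at 180.1, 46.7 and 220.2 CPM, again with replicate 2 low, and its log2 fold change was 0.66 (SE 0.51, 95% interval -0.44 to 1.75, edgeR adjusted p 0.744). Both genes had 2 maintenance libraries above every food-trained one and 1, replicate 2, inside the food-trained range. Daglb was at 259, 111 and 148 CPM, a difference of 0.19 on the log2 scale (95% interval -0.69 to 1.07). Faah was at 176, 82.8 and 118 CPM, a difference of 0.09 on the log2 scale (95% interval -0.56 to 0.74). For Mgll, at 13.9, 10.2 and 17.3 CPM, the log2 fold change of 0.63 had an interval of -1.84 to 3.10, and it was 0.19 without food-trained replicate 2 and 1.84 with limma-voom.

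Abstinence came next, with the question of which levels differ once 21 days without cocaine have passed. Set against food training, 0 of 7 genes passed by edgeR, as did 0% of all genes, and 0 passed with DESeq2 or limma-voom. At an unadjusted p under 0.05 there were 0 of 7, against 4.3% of all genes. No gene of the 7 was free of overlap, against 3.34% of all genes. The median log2 fold change was 0.30 for the 7 genes and 0.04 for all.

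Levels at abstinence spread around those after food training. Cnr1 was at 85.4, 207.5, 152 and 79.8 CPM, with replicates 2 and 3 above every food-trained library, and its log2 fold change was 0.47 (SE 0.47, 95% interval -0.55 to 1.49). Dagla was at 47.8, 79.8, 111 and 40.4 CPM, a difference of 0.19 on the log2 scale (SE 0.45, 95% interval -0.78 to 1.16). Daglb was at 87.9, 229, 169 and 83.4 CPM, a difference of -0.10 on the log2 scale (SE 0.38, 95% interval -0.91 to 0.72). In these 3 genes replicates 2 and 3 were higher than replicates 1 and 4. Abhd6, at 153, 259, 212 and 150.2 CPM, had the same split and a log2 fold change of 0.38 (SE 0.35, 95% interval -0.38 to 1.13). Faah, at 115, 201.3, 160.5 and 107 CPM, shared it as well, with a log2 fold change of 0.30 (SE 0.28, 95% interval -0.30 to 0.90). Napepld was at 13.2, 13.6, 21.5 and 13.8 CPM, with 1 library apart, and its log2 fold change was 0.01 (SE 0.52, 95% interval -1.11 to 1.14). Mgll was at 15.5, 10.4, 19.2 and 9.67 CPM, a difference of 0.61 on the log2 scale that was 0.19 without food-trained replicate 2 and 1.79 with limma-voom.

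Abstinence was also set against maintenance, the stage before it, in the same fit and with the same maintenance libraries as above. By edgeR, 0 of 7 genes passed, against 0.178% of all genes, with 0 by limma-voom and 1 (Dagla) by DESeq2, which called 3.84% of all genes. At an unadjusted p under 0.05, 2 of 7 passed, against 9.92% of all genes, and 2 of 7 did not overlap, against 12.2% (7.68% with abstinence higher). Both times these were Dagla and Napepld. Dagla, at least 40.4 CPM in each abstinence library, was 3.33 times its maintenance level (95% interval 1.55 to 7.18; log2 fold change 1.74, SE 0.51, edgeR adjusted p 0.280, DESeq2 adjusted p 0.0283). With the slopes removed this was 1.35 on the log2 scale (edgeR adjusted p 0.466), and with the shared term it turned to -0.35 (edgeR adjusted p 0.9999). Napepld, at least 13.2 CPM in each abstinence library, was 2.701 times its maintenance level (95% interval 1.12 to 6.51; log2 fold change 1.43, SE 0.59, edgeR adjusted p 0.479). With the slopes removed it was 1.58 and with the shared term 1.22. The median over the 7 genes was -0.01, beside 0.05 for all genes.

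When all 3 stages were tested together, 0 of 7 genes passed by edgeR, against 0.0839% of all genes, and 1 of 7 (Dagla, edgeR p 0.0135, adjusted p 0.481) had an unadjusted p under 0.05, against 7.85%. Some oligodendrocyte markers were also lower at maintenance. The sum over the 8 markers was 1089 to 1699 CPM at maintenance, where 1 of 3 libraries reached into the food-trained range of 1662 to 2700 CPM, and 1100 to 1985 CPM at abstinence. Of the 8 markers, 4 were lower at maintenance than after food training without overlap (Mog, Mag, Mbp and Mobp), against 4.14% of all genes in that direction, and 0 passed by edgeR. Mbp and Mobp are given after their values were seen. Mbp, the gene of myelin basic protein, was at 264 ± 87.9 CPM (n = 3) where food-trained libraries had 1050 ± 259.9 CPM (SD, n = 4), with an edgeR adjusted p of 0.0999. The astrocyte sum of 815 to 1108 CPM and the microglia sum of 472 to 1023 CPM at maintenance overlapped the food-trained ranges. Within these lists, 1 of 7 astrocyte markers was lower without overlap (Aldh1l1), 1 was higher (Slc1a3), 1 of 7 microglia markers was higher (P2ry12), and 0 passed by edgeR. Among neuron markers, also named after their values were seen, 3 of 10 of dopamine neurons were lower at maintenance without overlap (Pitx3, Ret and En1), 0 of 10 were higher without overlap and the median log2 fold change of the 10 was -0.03. Of 4 GABA neuron markers, 1 (Gad2) was higher without overlap and 0 lower. None of these markers passed by edgeR. Pitx3, a transcription factor of midbrain dopamine neurons, had a mean of 2.58 CPM at maintenance and 28.4 CPM after food training (edgeR adjusted p 0.130). The part of neuron markers in the lower Dagla and Napepld was not tested, and that of glial RNA was not tested beyond 1 fit: with the mean level of all glial markers as a covariate, the log2 fold change at maintenance was -1.56 for Dagla and -1.42 for Napepld.

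Pairs of the 7 genes were compared across the 11 dopaminergic libraries. Among 21 pairs, Pearson's r of log2 CPM passed an adjusted permutation p of 0.05 in 2, and Spearman's rho passed in 4. Over all pairs of 14154 genes with a mean of at least 20 counts, r was as high as in these 2 in 0.657%, and rho as high as in these 4 in 0.727%. Cnr1 and Abhd6, the receptor and a 2-AG hydrolase, had r = 0.83 (permutation p 0.00159, adjusted 0.0334) and rho = 0.82 (permutation p 0.00303, adjusted 0.0365). Leaving out the 2 libraries farthest from the median of Cnr1 gave r = 0.76. Daglb and Faah had r = 0.81 (permutation p 0.00336, adjusted 0.0353) and rho = 0.77 (permutation p 0.00695, adjusted 0.0365), and r = 0.78 without the 2 farthest libraries. Without the maintenance libraries the r values were 0.72 and 0.81 over 8 libraries, each with an adjusted permutation p of 0.148, so neither pair passed there. With each stage's mean removed, r was 0.83 for Cnr1 and Abhd6 and 0.95 for Daglb and Faah. Abhd6 and Faah, which join these 2 pairs, passed by rho only, with r = 0.64 (adjusted permutation p 0.150) and rho = 0.79 (adjusted permutation p 0.0365), and r = 0.71 with the stage means removed. Dagla and Napepld, the pair that was low at maintenance, had r = 0.67 (adjusted permutation p 0.125) and rho = 0.78 (adjusted permutation p 0.0365), and r = 0.04 with the stage means removed.

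Depth moved with these levels although CPM is scaled for it. The 4 dopaminergic libraries with the fewest counts, at most 37314334, were food-trained replicates 2 and 3, maintenance replicate 2 and abstinence replicate 4. They were the 4 lowest libraries of Abhd6, at up to 150.2 CPM against at least 153 in the other 7, and of Faah, at up to 107 against at least 108 CPM. Such a match held for 157 of 19060 genes, or 0.824%. Cnr1, Daglb and Mgll shared 3 of the 4 lowest libraries with it, and Dagla and Napepld 2. The part of depth and of GC slope in the correlations was not tested.

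**Figure D4:**
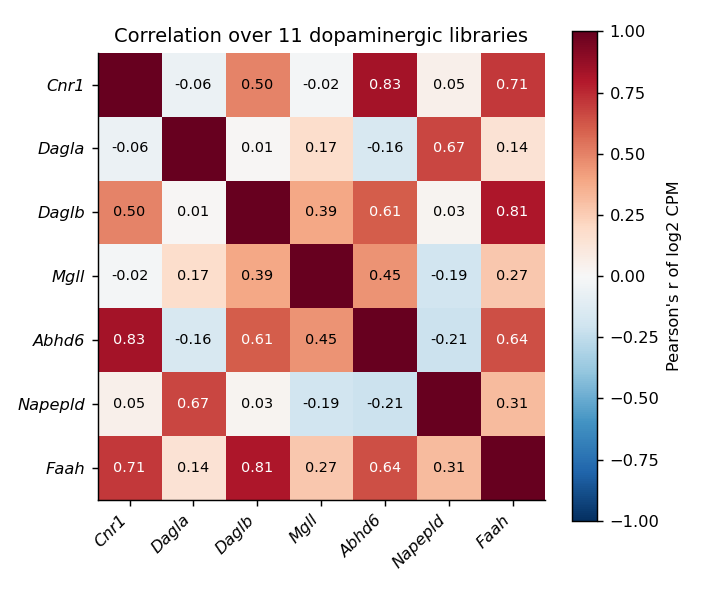
Pearson's r of log2 CPM between each pair of the 7 genes (rows and columns) over the 11 dopaminergic libraries, by color and printed value. The highest values are 0.83 for Cnr1 with Abhd6 and 0.81 for Daglb with Faah.

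For each gene the 3 genes with the highest r over the same 11 libraries were listed, out of 14154 with a mean of at least 20 counts. As the highest of so many, these r values are a description and carry no test. Cnr1 was closest to Slc39a6 (r = 0.96, rho = 0.92), a zinc transporter, Tram1l1 and Tmem106b. Dagla was closest to Tmem200c (r = 0.97, rho = 0.95), Nfya, a subunit of the factor NF-Y, and Ap2a1, a clathrin adaptor subunit. Daglb was closest to Dkk3 (r = 0.93, rho = 0.93), Poglut1 and Rnf185. Abhd6 was closest to Kcnj3 (r = 0.94, rho = 0.92), a subunit of G protein-gated potassium channels, Wnt2 and Jagn1. Napepld was closest to Yars2 (r = 0.96, rho = 0.94), a mitochondrial tRNA synthetase, Fam219a and Zdhhc8, and Faah to Dpysl2 (r = 0.94, rho = 0.82), Got1 and Ptprm. The likeness of Mgll rested on the library with its 0 count: r with Nt5dc3, Ethe1 and Pold2 was 0.99, 0.98 and 0.98, and -0.07, 0.49 and -0.04 over the 10 libraries without it.

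A further 40 genes of the pathway in 6 lists gave the surroundings. Between the populations 3 of the 38 tested passed by edgeR, or 7.89%, against 12.8% of all genes. With the replicate block 2 of 38 passed (Chrm5 and Gdpd1), or 5.26%, against 3.92% of all genes. DESeq2 called 4 of 38 (Chrm5, Gdpd1, Gde1 and Fabp3), against 19.6% of all genes. limma-voom called 8 of 38 (Chrm5, Gdpd1, Gpr18, Fabp3, Gpr55, Inpp5d, Ptgs2 and Ptpn22), or 21.1%, against 21.6% of all genes. The share lay above that of all genes with the block and below it in the other 3 fits. Gpr18 passed the filter on low counts only through the non-dopaminergic libraries, and without it 2 of 37 passed by edgeR with and without the block. Gpr55, Inpp5d and Ptpn22, which limma-voom called, also needed the non-dopaminergic libraries to pass the filter. Each had a lowest count of 0 in food-trained dopaminergic libraries, and their calls are given no weight. Between stages 0 of the 35 tested passed in any comparison by edgeR, against 0.131%, 0% and 0.178% of all genes. Chrm5, a muscarinic receptor that couples to Gq, upstream of 2-AG synthesis, had 57.6 ± 27.4 CPM in dopaminergic nuclei, where non-dopaminergic nuclei had 11.7 ± 3.68 CPM (SD, n = 4 each), a log2 difference of 2.31 with an SE of 0.39 and an edgeR adjusted p of 0.00670. Its lowest dopaminergic library, at 39.0 CPM, was above its highest non-dopaminergic one, at 16.5 CPM. The remaining 10 of 11 genes of the Gq and phospholipase C list did not pass, and the list's median log2 fold change was 0.13. Gdpd1, a phosphodiesterase related to Gde1 in a route to anandamide without Napepld, had 252 ± 43.3 CPM where non-dopaminergic nuclei had 138 ± 27.2 CPM (SD, n = 4 each), higher by 0.89 on the log2 scale without overlap (SE 0.21, edgeR adjusted p 0.0216). It did not pass without non-dopaminergic replicate 1 (edgeR adjusted p 0.0701) or 3 (0.0524), and 8 of the 9 genes tested from its list did not pass by edgeR (list median -0.31).

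Gpr18, a receptor known to bind N-arachidonoyl glycine, had 0 counts in the 4 food-trained dopaminergic libraries and 14 to 23 counts in the non-dopaminergic ones, at least 5.37-fold lower with a floor of 3 counts per library. Since only the group where it is high took it past the filter, its test is given no weight. The other 5 receptors tested did not pass by edgeR, and microglia markers were lower in the same libraries. The log2 fold changes of these 5 ran from -3.31 (Gpr55) to 3.85 (Trpv1), with -0.04 (Cnr2) in the middle. The list median of -0.75 includes Gpr18. In the lists of CB1-binding proteins, other breakdown enzymes and lipid carriers, 0 of 3, 0 of 5 and 0 of 4 genes passed between the populations by edgeR. Their most abundant members were Gprasp1, which sorts receptors after endocytosis (log2 fold change -0.28, edgeR adjusted p 0.455), Abhd12, a serine hydrolase (0.68, 0.205), and Scp2, a lipid carrier (0.37, 0.508). Cnr2, the gene of the CB2 receptor, is given outside the rule for naming genes, after its values were seen. It had 0 counts in all 3 maintenance libraries, 167 counts in 1 food-trained and 192 in 1 abstinence library with 0 in the other 3 of each group, and 10 to 123 counts in non-dopaminergic libraries.

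Between stages the most abundant genes of the 6 lists did not pass either. At maintenance the log2 fold change was -1.78 for Pparg, 0.41 for Gprasp1, -0.07 for Gde1, -0.03 for Abhd12, 0.46 for Scp2 and 0.21 for Grm5, with edgeR adjusted p from 0.645 to 1. The medians over the lists at maintenance were 0.34 for CB1-binding proteins, -0.07 for other anandamide synthesis and 0.34 for other breakdown enzymes. They were 0.33 for lipid carriers and near 0 for the Gq and phospholipase C list, beside -0.01 for all genes. For 3 other receptors the median of -2.76 was the value of Trpv1 (SE 2.29). These 3 were near the floor at maintenance, with means of 0.694 CPM for Trpv1, 0 for Ppara and 1.56 for Pparg. Gde1 and Gdpd1, of the other anandamide synthesis list, were at 391 and 254 CPM at maintenance and 408 and 252 CPM after food training. Napepld was at 5.74 ± 1.76 (n = 3) and 15.3 ± 4.78 CPM (SD, n = 4). Of the 9 genes tested from that list, 6 had lower and 3 higher log2 fold changes at maintenance, and 0 passed by edgeR. Gdpd3 was lower there without overlap, at a mean of 0.205 against 0.956 CPM, from at most 12 counts per maintenance library.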

How the data were processed

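The authors deposited whole-number counts per gene for 15 libraries, with 35976 genes listed by symbol. A further deposited table repeats 10 of these columns with 0 cells differing and was not used. The submitters' processing notes name Trim Galore 0.6.7, cutadapt 1.18, STAR 2.7.10a, StringTie 2.1.5, DESeq2 1.38.3 and the build mm10/GRCm38, with no role or order. The annotation they counted on is not given in the sources used here.

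Groups were read from sample titles and columns from sample descriptions. In R 4.3.3, genes were kept with filterByExpr, scaled with TMM and tested with edgeR 4.0.16 (quasi-likelihood F-test, two-sided, Benjamini-Hochberg over all genes tested, threshold 0.05), with 8 food-trained libraries for the populations and 11 dopaminergic libraries for the stages. The same table was tested with DESeq2 1.42.0 and limma-voom 3.58.1 with sample quality weights, with other scalings, filters and sets of libraries, a replicate block, a GC correction and each library left out. CPM uses TMM factors of all 15 libraries. Lengths and GC content come from GENCODE M21 (GRCm38), which matched 26763 symbols directly and 516 by an older symbol, with 8697 unmatched. Correlations used log2 CPM (prior count 2) and 100000 permutations in Python 3.11.15. On simulated data the fits were tested with 200 changed genes.

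The labels give both populations the same replicate numbers. Same-numbered food-trained libraries deviated together in all 4 pairs (correlation 0.116 to 0.262 over 8532 genes), so the numbers were taken to pair them. Differently numbered libraries of the 2 populations had correlations of -0.184 to 0.146. Abstinence with food-trained dopaminergic libraries, which come from different mice, had -0.281 to 0.261. The basis for the pairing is therefore weak, and the fits between the populations had no block unless stated. The stages come from different mice, and their numbers did not pair. The genes described and the lists were chosen with earlier results of these data known. The text names all 7 genes, every gene of the pathway lists that passed, otherwise each list's most abundant gene, and the first 2 markers of a list.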

Additional observations from a re-analysis of the deposited data

Results flagged for a closer look

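In groups of 4 libraries, 21 combinations of gene and group were screened for a library far from the other 3, by its gap to the nearest of them as a share of the group's range (Dixon's test at 95%). Chance gives about 1 in 20, and 4 stood out.

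Cnr1 was low in food-trained dopaminergic replicate 3, at 36.3 CPM with the next library at 108 CPM (share 0.863). That library has the fewest counts of the series, 25813697. Faah was high in food-trained dopaminergic replicate 4, at 154.6 CPM with the next at 108 CPM (share 0.900), and without that library its difference from non-dopaminergic nuclei passed. Napepld was high in abstinence replicate 3, at 21.5 CPM with the next at 13.8 CPM (share 0.927). It was also high in non-dopaminergic replicate 3, at 29.9 CPM with the next at 21.5 CPM (share 0.860).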

How the results depend on the processing

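Of 490 alternative values for the 7 genes, 446 kept their direction and side of the threshold, 2 passed where the value reported did not and 42 changed direction, 0 of the 42 with an adjusted p under 0.05. The 2 were Faah between the populations without food-trained dopaminergic replicate 4 (-0.67, edgeR adjusted p 0.0441), which made 1 of the 7 genes pass there (0 to 1 over the libraries left out), and Dagla at abstinence against maintenance with DESeq2 (1.71, adjusted p 0.0283), which made 1 pass there. In all other fits 0 of the 7 passed. The causes of these changes were not tested. Gpr18 had few counts, 0 in 4 libraries and at most 23 in the others compared.

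The directions that turned were, between the populations, Cnr1 (0.07) with block and GC correction (-0.0395) and Abhd6 (-0.05) with limma-voom (0.032). At maintenance against food training they were Dagla (-1.54) with the shared term (0.55), Daglb (0.19) with limma-voom (-0.0474) and the shared term (-0.0432), and Faah (0.09) with limma-voom (-0.0926). At abstinence against food training it was Napepld (0.01), with DESeq2 size factors (-0.0219), the DESeq2 test (-0.0224), limma-voom (-0.0873) and the glial covariate (-0.0809). At abstinence against maintenance they were Cnr1 (-0.19) with limma-voom (0.024), GC correction (0.0158) and block and GC correction (0.0438), Dagla (1.74) with the shared term (-0.35), Abhd6 (-0.40) with the shared term (0.0244), Faah (0.21) with GC correction (-0.0111), and Mgll (-0.01) without the filter (0.008), with the libraries of the 2 groups only (0.0028) and with the glial covariate (0.19). Leaving out a library gave both directions between the populations for Cnr1 (-0.0761 to 0.3622) and Abhd6 (-0.34 to 0.11), at maintenance for Daglb (-0.21 to 0.46) and Faah (-0.23 to 0.28), at abstinence against food training for Dagla (-0.13 to 0.38), Daglb (-0.41 to 0.18) and Napepld (-0.18 to 0.18), and at abstinence against maintenance for Cnr1 (-0.59 to 0.21), Daglb (-0.60 to 0.12) and Mgll (-0.22 to 0.17).

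Over all genes, the populations differed in 2534 genes (719 higher in dopaminergic nuclei), in 3883 (1505 higher) with DESeq2, 4266 (892 higher) with limma-voom, 775 (413 higher) with the replicate block, 834 with block and GC correction, and 1900 to 3740 with a library left out. Maintenance against food training gave 25 genes, and 894 with DESeq2, 9 with limma-voom, 1 with the 2 groups only, 0 with the shared term and 5 to 78 with a library left out. Abstinence against food training gave 0 (819 at an unadjusted p under 0.05), and 125 with DESeq2. Abstinence against maintenance gave 34, and 732 with DESeq2, 15 with all 15 libraries, 22 with the 2 groups only, 1 with the shared term and 6 to 73 with a library left out. Any difference among stages gave 16, and 8 with GC correction and 1 to 23 with a library left out. Between stages, where numbers do not pair libraries, a replicate block gave 0 genes at maintenance (0 with GC correction too), 2 at abstinence against maintenance (1 with GC correction) and 0 for any difference. The block changed the call of none of the 7 genes and of Gpr18 among the pathway genes that passed. Of the 21 pairs of genes, 2 passed by Pearson's r and 4 by Spearman's rho over 11 libraries, and 0 by r over the 8 without maintenance.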
